A study of Mus musculus with 6 samples.

Results

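The Siglech-positive plasmacytoid-like dendritic cells described here were 86 of the 1432 cells of cluster 7 and of 38057 cells in all. They were chosen by measured values, as the cells that the authors' clustering had placed in cluster 7 and that held 2 or more UMIs of *Siglech* and no UMI of *Ccr7*. A UMI, or unique molecular identifier, is a tag that marks each captured transcript once. All cells were CD45+ cells sorted from the spinal cord in experimental autoimmune encephalomyelitis (EAE), a mouse model of inflammatory demyelination, which had been induced in C57BL/6 recipients by the adoptive transfer of CD4+ T cells reactive to a myelin peptide and cultured with IL-23. Libraries were made on day 6 and day 10 after transfer from Young recipients, aged 8 to 12 weeks, and from Middle-aged recipients, aged 40 to 44 weeks. Each library pooled 4 spinal cords, so there was 1 library per age and day, no replicate and no group without transferred cells. Both sexes were used per the methods, and a pool gives no value per animal. Values of the 4 libraries are given in the order Young day 6, Young day 10, Middle-aged day 6 and Middle-aged day 10.

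Plasmacytoid dendritic cells are a rare lineage of the bone marrow that senses the nucleic acids of viruses in endosomes and is known for making large amounts of type I interferon. They are set apart from conventional dendritic cells by the transcription factor E2-2, the product of *Tcf4*, which opposes the conventional dendritic cell factor Id2 and binds short DNA sequences called E-boxes. Siglec-H, the product of *Siglech*, is a surface lectin that signals through the adaptor DAP12. In the mouse it marks plasmacytoid dendritic cells, and microglia carry it as well.

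The promoters of 3 genes are shown because E-boxes are the sequences that E2-2 binds. They are *Siglech*, which the rule used, and 2 genes of which a large part of all UMIs lay in these cells, *Klk1*, a kallikrein serine protease, and *Ccr9*, the receptor for the gut chemokine CCL25. Each window runs from 250 bases before to 50 bases after a RefSeq transcript start on GRCm38.p6, at chr7:55767934-55768233, chr7:44225110-44225409 and chr9:123766961-123767260, all on the plus strand, and capitals mark an E-box of the kind searched for. The motifs were CAGGTG, which on the opposite strand reads as CACCTG, and the palindrome spelled CAGCTG, and no 2 of these can overlap.
Siglech: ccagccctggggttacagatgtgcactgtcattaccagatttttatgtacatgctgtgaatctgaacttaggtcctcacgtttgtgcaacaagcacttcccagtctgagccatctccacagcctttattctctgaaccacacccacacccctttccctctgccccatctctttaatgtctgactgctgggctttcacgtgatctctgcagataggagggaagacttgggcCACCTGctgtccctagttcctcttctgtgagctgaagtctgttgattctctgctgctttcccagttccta
Klk1: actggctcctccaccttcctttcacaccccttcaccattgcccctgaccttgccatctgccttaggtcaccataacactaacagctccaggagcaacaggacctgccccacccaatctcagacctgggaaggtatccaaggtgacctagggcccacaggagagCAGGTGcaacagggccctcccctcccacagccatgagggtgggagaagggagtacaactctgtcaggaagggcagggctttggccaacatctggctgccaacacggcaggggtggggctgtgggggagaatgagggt
Ccr9: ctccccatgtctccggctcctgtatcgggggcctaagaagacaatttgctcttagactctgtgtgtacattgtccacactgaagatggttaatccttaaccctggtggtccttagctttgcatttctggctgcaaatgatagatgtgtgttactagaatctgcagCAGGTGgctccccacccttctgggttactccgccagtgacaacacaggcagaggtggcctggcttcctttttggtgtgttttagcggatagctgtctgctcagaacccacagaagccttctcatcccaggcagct
Each of the 3 windows held 1 such E-box. Of all 32851 RefSeq promoter windows of this length, 32.9% held at least 1. Among *Siglech* and the 20 plasmacytoid dendritic cell markers, 15 of 21 genes were matched to 19 windows, of which 10 (52.6%) held one. With any CANNTG counted, the shares were 72.3% of all windows and 84.2% of the 19. A match describes the sequence only, and no binding was measured. In the GENCODE vM21 annotation of GRCm38, *Siglech* spans chromosome 7, 55768178 to 55778925, *Klk1* chromosome 7, 44225360 to 44229618, and *Ccr9* chromosome 9, 123678439 to 123784330, where the window shown lies inside the annotated gene at the start of a shorter transcript.

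The table held 31, 22, 13 and 20 Siglech-positive cells in the 4 libraries. They made up 4.95% (exact Clopper-Pearson 95% interval 3.39 to 6.96), 11.1% (7.10 to 16.3), 4.498% (2.42 to 7.57) and 6.27% (3.87 to 9.52) of cluster 7, which itself held 626, 198, 289 and 319 cells. As shares of all cells of a library they were 0.373%, 0.224%, 0.130% and 0.203%. The order of the libraries thus depended on the denominator, with Young day 10 highest within cluster 7 and Young day 6 highest among all cells. These intervals cover counting error only, and with 1 library per age and day a difference of age or day cannot be told apart from a difference between libraries.

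**Figure D1:**
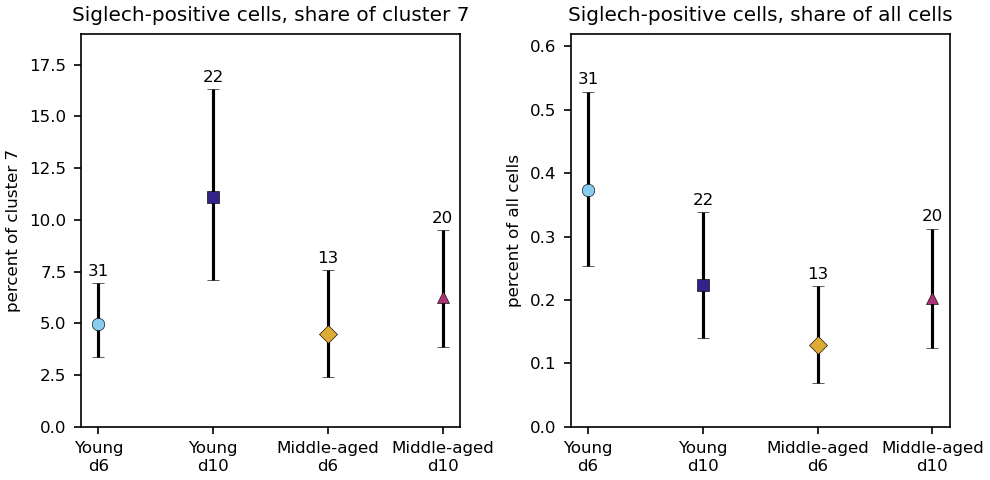
Share of Siglech-positive cells in cluster 7 (left) and in all cells (right) of each library, in percent, with exact 95% intervals for counting error and the number of cells beside each error bar. Young day 10 was highest of cluster 7 (11.1%) and Young day 6 highest of all cells (0.373%).

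The Siglech-positive cells held 830553 UMIs in all, at a median of 8040 UMIs and 2517.5 genes per cell and a range of 1988 to 25952 UMIs. The other 1346 cells of cluster 7 had a median of 9408 UMIs, the 2057 cells of cluster 8 of 2614 and the 1344 cells of cluster 10 of 8214.5. The median share of mitochondrial UMIs was 4.19% in Siglech-positive cells and 2.42%, 2.95% and 2.25% in the other 3 sets. Cell barcodes were shared by more than 1 library in 308 of the 38057 cells, of which 1 was Siglech-positive, and no 2 Siglech-positive cells shared a barcode. Levels are summed UMIs of a gene over the cells of a set for every 1000000 UMIs summed there (CPM), which count 3′ ends and are not compared between genes.

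Within the Siglech-positive cells *Siglech* ran from 2 to 31 UMIs per cell, with a median of 10. The medians were 10, 8, 7 and 11 UMIs in the 4 libraries. At the edge of the rule, 10 cells had 2 UMIs and 9 had 3. Just outside it lay 29 cells of cluster 7 with 1 *Siglech* UMI and no *Ccr7*, and 7 cells with 2 or more *Siglech* UMIs that also held *Ccr7*. To see what the edge cells carried, UMIs of 6 further genes were added up, *Ccr9*, *Ly6d*, *Klk1*, *Cox6a2*, *Iglc3* and *Atp1b1*, which were chosen after their values were seen. The median sum was 48 UMIs in the 67 cells with 4 or more *Siglech* UMIs, 3 in the cells with 3, 1 in the cells with 2 and 0 in the 29 cells with 1. All 44 cells with 10 or more *Siglech* UMIs held at least 16 UMIs of the 6 genes.

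**Figure D2:**
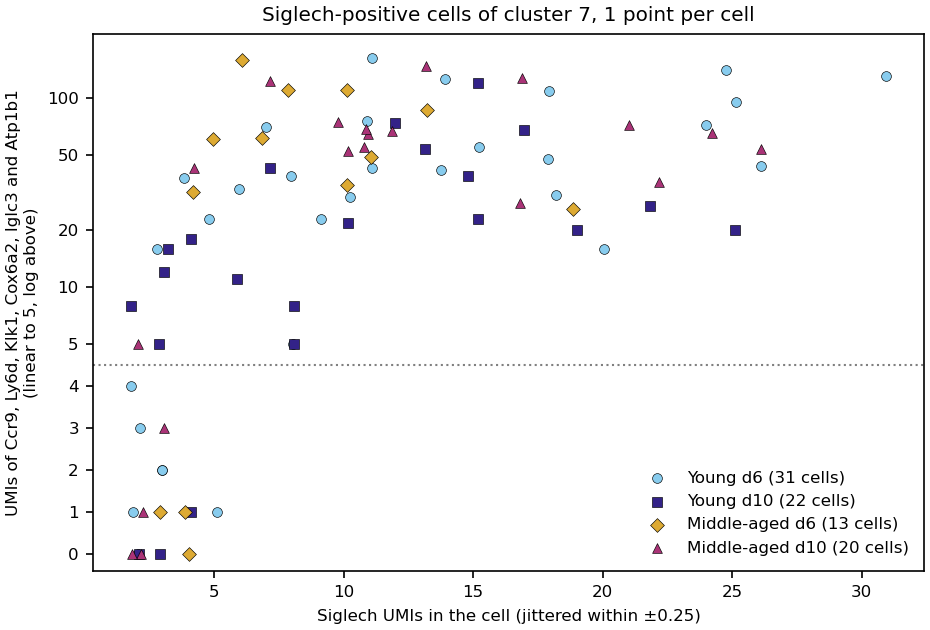
Each point is 1 of the 86 Siglech-positive cells, with its *Siglech* UMIs on the x axis and the UMIs of 6 other genes on the y axis (linear to 5, log above), marked by library. The 17 cells below the dotted line, with fewer than 5 UMIs of the 6 genes, had at most 5 *Siglech* UMIs and came from all 4 libraries.

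*Siglech* itself was shared with microglia. The Siglech-positive cells held 907 of the 4323 *Siglech* UMIs of the table (21.0%), and clusters 8 and 10 held 71.7%. Clusters 8 and 10 carried the microglial list of 14 genes at a summed level of 19908 and 28025 CPM, against 981 CPM in Siglech-positive cells. They were not pure in markers, since monocyte/macrophage markers stood at 26096 and 11974 CPM and neutrophil markers at 7012 and 4031 CPM in clusters 8 and 10. In Siglech-positive cells *Siglech* stood at 1106, 1100, 924 and 1158 CPM. The other cells of cluster 7 had 5.26 CPM, whereas cluster 8 had 72.0 and cluster 10 had 207 CPM. The rule split cluster 7 by this gene, while clusters 8 and 10 were not selected on it. The levels and shares of *Siglech* given here therefore follow in part from the choice. In clusters 8 and 10, 92 and 630 cells met the same conditions on *Siglech* and *Ccr7*. With every cell randomly reduced to 2000 UMIs, a *Siglech* UMI was found in 84.7% of Siglech-positive cells, 0.756% of the other cells of cluster 7, 12.04% of cluster 8 and 33.2% of cluster 10. Cells with fewer UMIs than that, 1, 23, 728 and 38 of these sets, could not be used. At full depth the shares were 100%, 2.97%, 18.2% and 70.2%. In cluster 2, whose cells carried T cell markers at 5145 CPM and should lack the gene, the share was 0.0908% after the reduction and 0.176% at full depth, with a median depth of 5317.5 UMIs.

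Genes were compared as the ratio of summed CPM, for every gene with a mean of 20 CPM or more over the compared sets. A gene is called higher or lower where the ratio over all libraries was at least 2-fold and the direction was the same in each of the 4 libraries. Of 5386 genes compared between Siglech-positive cells and the other cells of cluster 7, 495 (9.19%) were called higher and 303 (5.63%) lower, and the median log2 ratio was 0.16. Counts of calls in the lists below are to be read beside these shares. Without the Young day 6 library, where only the remaining libraries had to agree in direction, 483 were called lower. With the median log2 ratio of all compared genes subtracted from each ratio, 393 were called higher and 368 lower. Of 5742 genes compared with clusters 8 and 10 together, 596 (10.4%) were called higher and 561 (9.77%) lower, with a median of 0.10. The rule drew the Siglech-positive cells from cluster 7 by expression, and the clustering had separated the clusters on the genes themselves. These ratios are therefore descriptions, with no test. Brackets give exact conditional binomial 95% intervals of a log2 ratio, for counting error only.

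As a summed set, the Siglech-positive cells carried the plasmacytoid dendritic cell markers. Of the 86 cells, 17 held fewer than 5 UMIs of the 6 genes added up above. The list of 20 markers was chosen with earlier results of these data known. All 20 genes of that list were called higher than in the other cells of cluster 7, with a median log2 ratio of 3.44, and 19 of 20 were called higher than in clusters 8 and 10, with a median of 6.24. The exception was the inhibitory receptor gene *Lair1*, at 383 CPM in Siglech-positive cells and 510 CPM in cluster 10. The median ratios to the other cells of cluster 7 were 3.40, 3.81, 4.93 and 4.59 in the 4 libraries. Added up, the 20 genes stood at 15469, 11929, 18096 and 16065 CPM in Siglech-positive cells and at 2469, 1745, 2745 and 1433 CPM in the other cells of cluster 7, so the sets did not overlap. None of these libraries is a replicate of another.

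Among the surface and secreted markers, *Ly6d*, a lymphoid surface antigen, was at 2036, 1349, 3742 and 3459 CPM in Siglech-positive cells. In the other cells of cluster 7 it was at 11.05, 23.2, 22.2 and 1.06 CPM, a log2 ratio of 7.58 [7.35 to 7.81]. *Ccr9* was at 685, 550, 649 and 607 CPM, more even over the libraries than *Ly6d* or *Klk1*, against 5.998, 8.32, 2.47 and 2.12 CPM (7.05 [6.68 to 7.44]). *Klk1* was at 488, 132, 729 and 122 CPM, higher in both day 6 libraries than in both day 10 libraries, and 52.2% of its UMIs came from 5 cells. The other cells of cluster 7 held 2 UMIs of *Klk1* (11.23 [9.36 to 14.28]) and clusters 8 and 10 none, which makes the log2 ratio to them at least 11.16 at a floor of 3 UMIs.

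A large part of all UMIs of *Klk1*, *Dntt*, *Cd300c* and *Ccr9* in the table lay in these few cells. Siglech-positive cells, 0.226% of all cells, held 291 of 296 *Klk1* UMIs (98.3%), 94 of 152 *Dntt* UMIs (61.8%), 50.8% of *Cd300c* and 523 of 1056 *Ccr9* UMIs (49.5%). Cells with both *Klk1* and *Ccr9* numbered 36 in the whole table, all of them in cluster 7. Cluster 7 as a whole held 91.7% of *Cd300c* UMIs. Of other genes named here most UMIs lay outside the Siglech-positive cells, which held 18.1% of *Atp1b1*, 15.4% of *Ly6d*, 7.55% of *Iglc3* and 3.49% of *Mzb1*. For *Cox6a2*, which encodes a muscle-type subunit of cytochrome c oxidase, clusters 8 and 10 held 57.6% of the UMIs and Siglech-positive cells 20.6%. Per UMI, *Cox6a2* was nonetheless higher in Siglech-positive cells, at 611, 453, 649 and 648 CPM against 85.1 CPM in cluster 8 and 61.6 CPM in cluster 10. *Klk1* has close relatives in the kallikrein family, *Iglc3* in *Iglc2*, and *Klra17* and *Ly6c2* in their own families, so reads that match several copies may have been dropped or split.

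*Bst2*, which encodes the tetherin antigen used to sort plasmacytoid dendritic cells, was found in all Siglech-positive cells. At full depth it was also found in 91.1% of the other cells of cluster 7, 76.8% of cluster 8 and 93.5% of cluster 10. In Siglech-positive cells *Bst2* stood at 2813, 2561, 3333 and 2597 CPM, against 817, 423, 1065 and 312 CPM in the other cells of cluster 7, a log2 ratio of 1.95 [1.89 to 2.02]. Clusters 8 and 10 were at 709 and 720 CPM, near the 716 CPM of the other cells of cluster 7. *Ly6c2*, a Ly6C antigen of monocytes and plasmacytoid dendritic cells, was at 2229 CPM against 315 CPM (2.82 [2.74 to 2.90]). *Atp1b1*, a subunit of the sodium pump, was at 324 CPM against 1.75 CPM (7.53 [6.92 to 8.20]), and *Iglc3*, a lambda light chain constant region, at 374 CPM against 2.12 CPM (7.46 [6.91 to 8.07]).

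**Figure D3:**
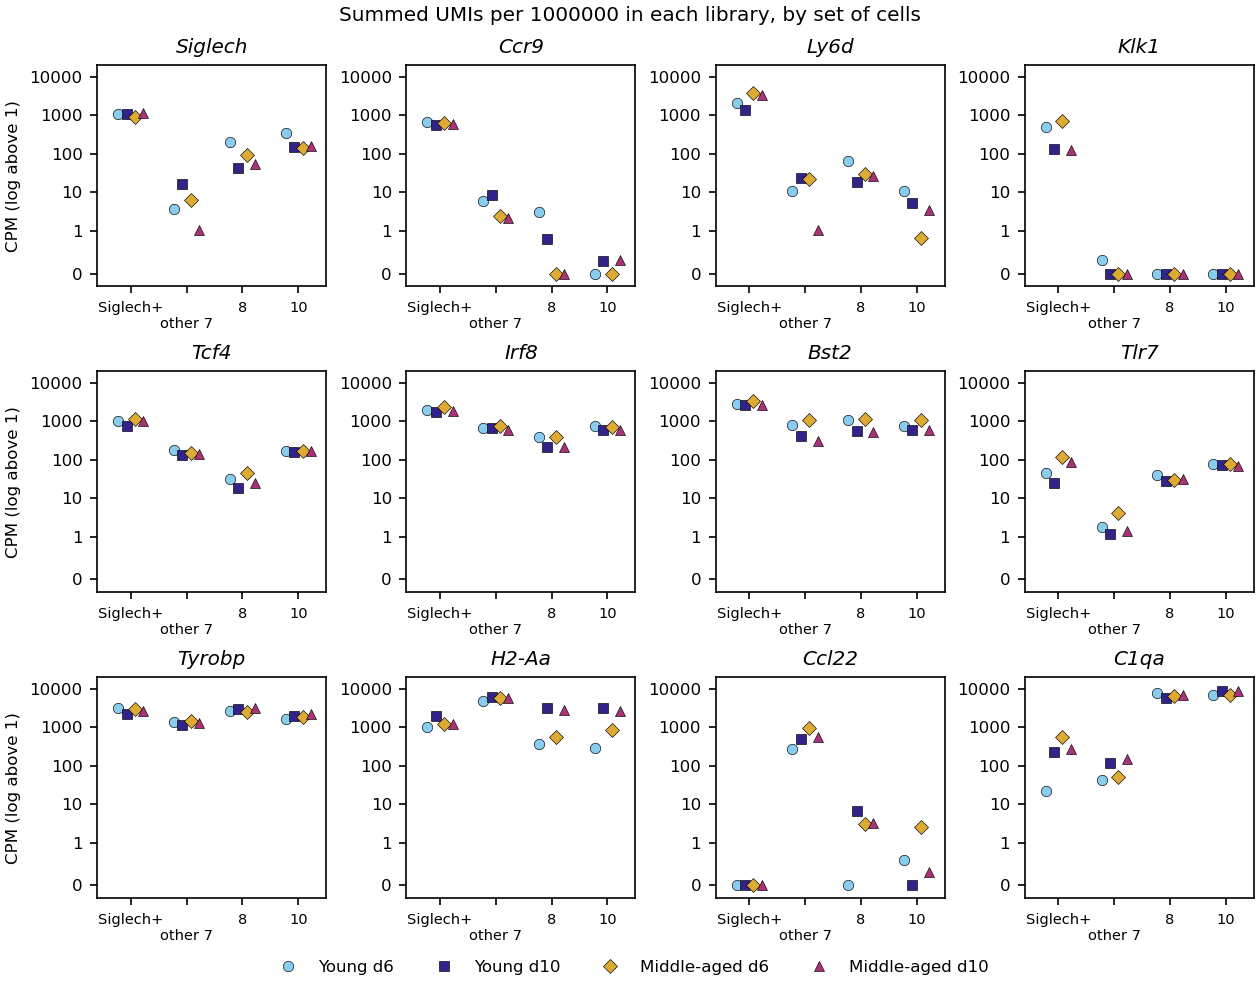
Level of 12 genes (CPM, linear below 1 and log above) in Siglech-positive cells (Siglech+), the other cells of cluster 7 (other 7) and clusters 8 and 10, with 1 point per library. *Ccr9*, *Ly6d* and *Klk1* lay above all other sets in each library, *Tyrobp* was above 1000 CPM in every set, *Ccl22* was at 0 in Siglech-positive cells, and *C1qa* was highest in clusters 8 and 10.

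Of 9 transcription factors of plasmacytoid dendritic cells, 4 of which (*Tcf4*, *Spib*, *Runx2* and *Irf8*) were already counted among the 20 markers, 7 were called higher than in the other cells of cluster 7 and none lower, with a median log2 ratio of 2.64. *Tcf4* was at 1041, 759, 1120 and 1015 CPM in Siglech-positive cells and at 176, 133, 146 and 140 CPM in the other cells of cluster 7 (2.64 [2.52 to 2.76]), with no overlap. *Runx2*, which these cells need to leave the bone marrow, had the largest ratio of the list, at 295 CPM against 33.0 CPM (3.16 [2.93 to 3.39]). *Tcf12*, which encodes the E protein HEB, *Bcl11a* and *Spib* followed, with log2 ratios of 3.09, 2.71 and 2.69. *Irf8*, a factor of plasmacytoid and of conventional type 1 dendritic cells, was at 1930 CPM against 666 CPM (1.54 [1.46 to 1.61]), and *Zeb2* at 319 CPM against 142 CPM (1.17).

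The exceptions were *Irf7* and *Cbfa2t3*. *Irf7*, the master factor of type I interferon induction, was at 556, 158, 498 and 204 CPM in Siglech-positive cells and at 667, 106, 698 and 70.5 CPM in the other cells of cluster 7. It was thus lower on day 6 and higher on day 10 in the libraries of both ages. *Cbfa2t3*, which encodes the corepressor ETO2, was at 152 CPM against 230 CPM (-0.60 [-0.87 to -0.34]), yet at only 5.18 and 10.3 CPM in clusters 8 and 10. Against clusters 8 and 10, 8 of the 9 factors were called higher and *Zeb2*, at 527 CPM in cluster 10, was not.

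Factors of conventional dendritic cells showed the opposite direction. The other cells of cluster 7 included cells with *Ccr7*, which the rule kept out of the Siglech-positive cells. The part of that condition in these ratios was not tested. Of 8 listed, 7 were abundant enough to compare and 5 were called lower, *Id2*, *Batf3*, *Nfil3*, *Relb* and *Zfp366*, with a median log2 ratio of -1.74 over the 7. *Id2* was at 123, 204, 178 and 255 CPM in Siglech-positive cells and at 449, 884, 554 and 827 CPM in the other cells of cluster 7 (-1.74 [-1.98 to -1.51]). It was unevenly spread, since 5 cells held 60.7% of its UMIs. *Batf3*, a factor of conventional type 1 dendritic cells, had 14 UMIs in 6 cells (-2.88 [-3.75 to -2.13]), and *Zbtb46*, which marks the conventional lineage, had 5 UMIs, under the minimum for a call.

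Genes of mature, migratory dendritic cells were lower in Siglech-positive cells than in the other cells of cluster 7. Because the rule excluded cells with *Ccr7*, the receptor that guides these cells to lymph nodes, part of this difference was fixed by the choice. All 9 comparable genes of the mature list were called lower, with a median log2 ratio of -3.57, and 5 of its 12 genes, *Fscn1*, *Ccl22*, *Cacnb3*, *Nudt17* and *Apol7c*, had no UMI in any Siglech-positive cell and entered the median, where compared, at the floor of 3 UMIs. *Ccl22*, a chemokine that attracts regulatory T cells, was at 272, 485, 955 and 566 CPM in the other cells of cluster 7. With a floor of 3 UMIs, it was at least 139-fold lower in Siglech-positive cells, and *Fscn1*, the actin-bundling fascin of mature dendritic cells, at least 102-fold. *Ccl17*, which acts on the same receptor, had 7 UMIs in 3 cells (8.43 CPM) against 1594 CPM (-7.56 [-8.88 to -6.52]). With *Ccr7* left out of the rule, which added 7 cells, the median of the list was -1.94.

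Other genes with the smallest ratios to the rest of cluster 7 were *Mmp25*, a membrane-bound matrix protease, at 6.02 against 131 CPM, *Ramp3*, a subunit of receptors for calcitonin-family peptides, at 14.4 against 252 CPM, *Tbc1d4*, a regulator of vesicle traffic, at 13.2 against 209 CPM, *Bcl2a1d*, of the anti-apoptotic A1 family, at 42.1 against 530 CPM, and *Serpinb6b*, a serpin protease inhibitor, at 28.9 against 344 CPM. In each the direction was the same in the 4 libraries. Those with the largest ratios outside the marker list were *Dntt* (8.27 [7.001 to 9.93]), *Mzb1* (6.77 [5.92 to 7.73]), *Mctp2* (6.02), *Fcrla* (5.12), the predicted genes *Gm21762* (4.77) and *Gm34680* (4.58), and *Prkca* (4.51), the gene of protein kinase C alpha.

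Transcripts of antigen presentation were lower in Siglech-positive cells than in the other cells of cluster 7. Those other cells were not selected on *Ccr7*, and of the 1306 cells of cluster 7 without a *Siglech* UMI, 871 had no *Ccr7* UMI. The part of the *Ccr7* condition in these ratios was not tested. Of 15 genes of MHC class II and co-stimulation, 13 were called lower and none higher, with a median log2 ratio of -1.69. *Cd74*, the invariant chain, was at 3363, 6858, 3857 and 4005 CPM in Siglech-positive cells and at 14240, 14093, 14566 and 13683 CPM in the other cells of cluster 7 (-1.69 [-1.73 to -1.64]). *H2-Aa* was at 983, 1986, 1218 and 1173 CPM against 4760, 6085, 5823 and 5680 CPM (-2.04 [-2.13 to -1.95]), and 35.9% of its UMIs came from 5 cells. *Ciita*, the class II transactivator, was at 38.5 CPM against 178 CPM (-2.21). Of the co-stimulatory genes, *Cd80* was at 12.04 against 65.7 CPM, *Cd86* at 124 against 300 CPM and *Cd40* at 69.8 against 184 CPM. The 2 genes not called were *H2-DMa* (-0.54) and *Icosl* (-0.97).

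Against microglia the class II genes gave a different picture. Of 13 genes compared with clusters 8 and 10, 1, *Cd274*, was called lower and none higher. The summed list was at 7242, 13614, 8648 and 8295 CPM in Siglech-positive cells. In cluster 10 it was at 3284, 20911, 7434 and 17364 CPM, lower than in Siglech-positive cells in both day 6 libraries and higher in both day 10 libraries.

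The endosomal sensing genes differed by member. *Tlr7*, which encodes a receptor for single-stranded RNA, was at 46.1, 25.5, 116 and 86.7 CPM in Siglech-positive cells and at 1.74, 1.19, 4.24 and 1.42 CPM in the other cells of cluster 7 (4.83 [4.14 to 5.54]). Microglia held it at like levels, 31.1 CPM in cluster 8 and 73.5 CPM in cluster 10, and the log2 ratio to both together was 0.04 [-0.39 to 0.45]. *Tlr9*, the receptor for CpG DNA, had 3 UMIs in Siglech-positive cells (1.46 [-0.95 to 3.23]) and was too rare to compare. *Pld4*, an endosomal nuclease, was at 471 CPM against 144 CPM (1.71), and *Slc15a4*, a lysosomal transporter needed for signals from these receptors, at 68.6 CPM against 31.3 CPM (1.13). With *Tlr7* these made 3 of 9 genes called higher than in the other cells of cluster 7, and none was called lower. Over all compared genes 9.19% were called higher and 5.63% lower. *Unc93b1*, the chaperone of the receptors, was at 497 CPM against 257 CPM, just under the 2-fold limit (0.95).

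Type I interferon transcripts could hardly be examined. Of 17 interferon genes listed, only *Ifnb1* was in the table, and the other 16 were not analysed here. *Ifnb1* had no UMI in Siglech-positive cells or in the other cells of cluster 7. It was at 0.144 CPM in cluster 8 and 1.67 CPM in cluster 10. At a limit of 3 counts, 0 of 86 cells allows a share of up to 3.49% of cells with a UMI, which does not limit the share of cells that express the gene. Of the interferon-stimulated genes, none of 18 was called higher than in the other cells of cluster 7 and 3 were called lower, *Zbp1* (-1.42), *Ifitm3* (-1.15) and *Ifit3* (-1.05), with a median log2 ratio of -0.57. With the same cells, 9.19% of all compared genes were called higher and 5.63% lower. Without the 21 cells of mixed content described below, 8 of 18 were called lower. *Isg15* was at 1354, 76.4, 720 and 107 CPM in Siglech-positive cells and at 1542, 285, 2502 and 132 CPM in the other cells of cluster 7. The whole list stood at 10872, 2912, 7573 and 1627 CPM in Siglech-positive cells, so both day 6 libraries were above both day 10 libraries. The same order was seen in the other cells of cluster 7, at 13558, 4438, 14882 and 3786 CPM, and in clusters 8 and 10. Among Siglech-positive cells 5 cells held 30.3% of these UMIs.

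For the signalling of Siglec-H, *Tyrobp*, the gene of its adaptor DAP12, was at 3209, 2133, 2924 and 2597 CPM in Siglech-positive cells and at 1326, 1149, 1399 and 1250 CPM in the other cells of cluster 7 (1.09 [1.03 to 1.15]). It was at 2883 CPM in cluster 8 and 1902 CPM in cluster 10. *Blnk*, an adaptor that couples the kinase Syk to calcium signals and is best known from B cells, was at 131 CPM against 9.51 CPM (3.79 [3.41 to 4.17]), and above the 24.7 and 55.7 CPM of clusters 8 and 10. *Syk* (0.78), *Plcg2* (0.66) and *Cblb* (-0.73) were not called, and 2 of the 7 listed genes were. Of 18 genes of the secretory pathway, which plasmacytoid dendritic cells need to release cytokines, *Mzb1*, *Sec11c* and *Hsp90b1* were called higher and the median was 0.63. Over all compared genes 9.19% were called higher, and with so few genes neither count describes its pathway. *Mzb1*, an endoplasmic reticulum chaperone of antibody-secreting cells, was at 95.2, 143, 44.4 and 112 CPM against 0.951 CPM. *Xbp1*, the factor that expands this compartment, was at 275 CPM against 211 CPM (0.38).

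Genes of lymphoid development made up a further group. Of 9 comparable genes, 8 were called higher than in the other cells of cluster 7 and none lower, with a median log2 ratio of 2.50. *Dntt*, which encodes the terminal transferase of antigen receptor rearrangement, was at 49.1, 127, 116 and 204 CPM in Siglech-positive cells and had 5 UMIs in the other cells of cluster 7. It was found in 35 of 86 cells, with at most 9 UMIs in a cell. *Rag1* had no UMI in Siglech-positive cells, and *Ptcra*, the pre-T cell receptor chain, had 10 UMIs, 7 of them in 1 cell. *Cd8a* was at 18.4, 40.7, 142 and 255 CPM and *Cd8b1* at 58.4, 71.3, 204 and 250 CPM, each higher in both Middle-aged than in both Young libraries, though 5 cells held 53.8% and 48.6% of their UMIs. This is an order of single libraries, and a difference of age cannot be told apart from one between libraries. *Cd7*, a surface antigen of lymphocytes, was at 295 CPM against 71.6 CPM (2.04), and *Il7r* at 225 CPM against 140 CPM (0.69), which was not called. *Igkc*, the kappa light chain, had 64.3% of its UMIs in 5 cells. In the 65 cells that remain when cells of mixed content are left out, 8 of the 9 genes were again called higher.

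Among the receptors for homing, *Cxcr3*, a receptor for interferon-induced chemokines, was at 36.1 CPM against 7.53 CPM (2.26), and *S1pr4*, a receptor for sphingosine-1-phosphate, at 38.5 CPM against 9.73 CPM (1.99), and both were called higher than in the other cells of cluster 7. Both lay little above the minimum mean of 20 CPM. *Ccr2* was at 183 CPM against 205 CPM (-0.16) and 5 cells held 52.0% of its UMIs. Among receptors for growth factors and cytokines, *Csf2rb2*, *Ifnar1* and *Ifnar2* were called higher and *Kit* and *Csf2ra* lower, of 11. The shares over all compared genes were 9.19% and 5.63%. *Flt3*, the receptor for the growth factor of dendritic cells, was at 119 CPM in Siglech-positive cells, 63.5 CPM in the other cells of cluster 7 (0.91) and under 1 CPM in clusters 8 and 10. *Csf1r*, the receptor on which microglia depend, was at 91.5 CPM, 56.2 CPM, 661 CPM and 1126 CPM in the same order.

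Of 9 comparable genes for cytokines, chemokines and granzyme, *Ccl4* was called higher and *Ccl5*, *Cxcl9* and *Il12b* lower. Among all compared genes the shares were 9.19% and 5.63%. *Ccl4*, an inflammatory chemokine, was at 2678, 2612, 1902 and 1383 CPM in Siglech-positive cells and at 783, 395, 554 and 400 CPM in the other cells of cluster 7 (1.89 [1.81 to 1.96]), while cluster 10 reached 4968 CPM. *Ccl5* was at 43.0, 351, 0 and 20.4 CPM against 808, 1898, 1539 and 1541 CPM (-3.57 [-3.89 to -3.27]). *Il12b*, a subunit of IL-12 and IL-23, had no UMI in Siglech-positive cells and was at 47.1 CPM in the other cells of cluster 7. *Il12a*, the other subunit of IL-12, had 27 UMIs in 21 cells, or 32.5 CPM against 2.34 CPM, but was under the minimum for a call. *Tnf* was at 56.6 against 40.2 CPM, and *Il6* had 3 UMIs.

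**Figure D4:**
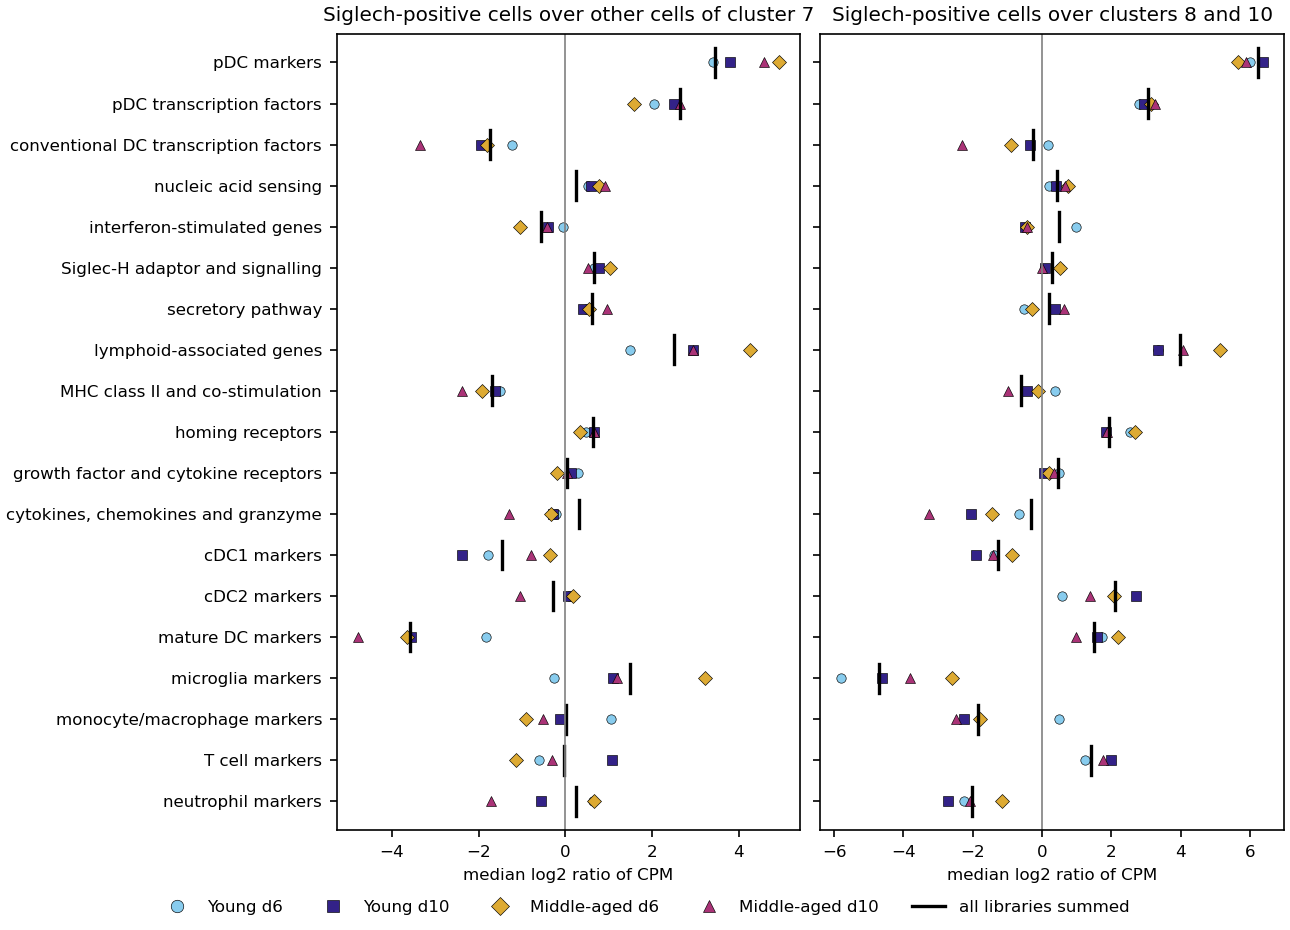
Median log2 ratio of CPM of Siglech-positive cells over the other cells of cluster 7 (left) and over clusters 8 and 10 (right) for each list of genes with 4 or more genes compared on the left, with 1 point per library and a bar for all libraries summed. A point uses the genes that have a ratio in that library, with a count of 0 set to 3 UMIs. Marker genes of plasmacytoid dendritic cells had bars of 3.44 and 6.24, mature dendritic cell markers -3.57 on the left, and microglial markers 1.498 on the left and -4.69 on the right.

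Markers of other cell types were checked as whole lists. Of 14 microglial genes, 8 were comparable with the other cells of cluster 7, 2 were called higher and the median log2 ratio was 1.498. Their summed level was 375, 1059, 2364 and 1117 CPM in Siglech-positive cells and 271 to 598 CPM in the libraries of the other cells of cluster 7. *Fcrls* was at 0 and *Tmem119* had 8 UMIs. These UMIs were concentrated, as 7 Siglech-positive cells with 20 or more of them, at a median depth of 15998 UMIs, held 83.7%. The median of Siglech-positive cells was 1 UMI. When each cell was thinned to 2000 UMIs the median log2 ratio of the list turned to -0.41. It was 1.91 without cells with 20 or more T, B, NK or neutrophil marker UMIs and 2.38 when *Ccr7* was not used in the rule, and without the cells rich in microglial markers too, 2 of its genes were left to compare, at a median of 1.49. Against clusters 8 and 10, all 14 microglial genes were called lower, with a median of -4.69.

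T cell markers were at 0 in 71 of the 86 Siglech-positive cells, and 8 cells held 94.9% of their 293 UMIs. Neutrophil markers were similarly placed, with 89.0% of 1098 UMIs in 7 cells and *Ly6g* at 0. B cell markers had 42 UMIs, of which the 5 highest cells held 95.2%, plasma cell markers 2 UMIs, NK cell markers 88 UMIs and genes of dividing cells 24 UMIs. Of 10 monocyte/macrophage genes, *Apoe* was called higher, and a single cell held 33.5% of its UMIs. That list had 3160 UMIs, of which 11 cells with 20 or more, at a median depth of 17042 UMIs, held 91.1%. Transcripts with high sums could also come from single cells. 206 of 252 UMIs of *Ifng*, a gene chosen after its values were seen, lay in 1 cell of 19048 UMIs, and all 35 UMIs of *Gzmb* in 1 cell of 17899 UMIs that also held 58 UMIs of T cell markers. Altogether 21 Siglech-positive cells, 6, 7, 3 and 5 of the 4 libraries, held 20 or more UMIs of microglial, T, B, NK or neutrophil markers, a tally without the monocyte/macrophage list. Such cells were 8.14% of Siglech-positive cells for microglial markers, 9.30% for T cell markers and 8.14% for neutrophil markers, against 3.12%, 7.95% and 3.49% of the other cells of cluster 7, and for monocyte/macrophage markers 12.8% against 17.2%. Without such cells, an alternative added after the data were seen, the remaining 65 cells had the 20 plasmacytoid dendritic cell markers called higher in full, with a median of 3.86, and 561 genes were called higher and 423 lower. Of the original calls, 410 of 495 and 277 of 303 were among them. The part of mixed droplets in these values was not tested.

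The markers of the conventional subsets were divided. *Xcr1*, the chemokine receptor of conventional type 1 dendritic cells, had no UMI in Siglech-positive cells, against 25.2 CPM in the other cells of cluster 7, and 3 of 6 comparable markers of that subset were called lower. *Clec9a*, its receptor for dead cells, was at 63.8 CPM against 45.8 CPM (0.48 [0.04 to 0.88]) and was not called. None of 6 markers of conventional type 2 dendritic cells was called in either direction, with a median of -0.28. *Clec10a*, a lectin of that subset, was at 319, 372, 187 and 296 CPM in Siglech-positive cells and at 343, 135, 195 and 118 CPM in the other cells of cluster 7, with overlapping ranges. Both *Cd209a* and *Clec10a* were found in 19 of the 86 Siglech-positive cells.

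The Siglech-positive cells were not uniform. Split at 5 UMIs of the 6 genes named above, a limit set after the values were seen, 69 cells lay above and 17 below. The 17 were 7, 3, 3 and 4 cells of the 4 libraries. Their median depth was 8476 UMIs, against 7888 UMIs in the 69, so they were not shallower. *Siglech* was at 1304 CPM in the 69 and 279 CPM in the 17, *Irf8* at 2351 and 320 CPM, and *Cd300c* at 187 and 29.1 CPM. *Tcf4* (1093 and 541 CPM), *Ly6c2* (2469 and 1308 CPM) and *Bst2* (2896 and 2302 CPM) differed less. In the other direction, *Cd209a*, a lectin of conventional type 2 and monocyte-derived dendritic cells, was at 111 CPM in the 69 and 605 CPM in the 17, *Cd74* at 3297 and 8661 CPM, and *H2-Aa* at 996 and 2447 CPM. *Xcr1* was at 0 in both. Of the 21 cells with 20 or more such foreign-lineage UMIs, 17 were among the 69 and 4 among the 17. The split follows from the genes chosen for it. In the 17 cells *Tcf4*, *Bst2* and *Ly6c2* were still above the 157, 716 and 315 CPM of the other cells of cluster 7. *Irf8*, at 320 CPM in the 17, was below its level in those other cells. Outside cluster 7 a sum of 5 UMIs of the 6 genes was also reached by 896 of 1360 cells of cluster 4. It was reached too by 104 of 154 cells of cluster 14 and 26 of 59 cells of cluster 15. Clusters 4, 14 and 15 carried B cell markers at 5142, 2121 and 1738 CPM. Smaller shares of other clusters reached it, such as 67, 31 and 38 cells of clusters 1, 8 and 10.

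**Figure D5:**
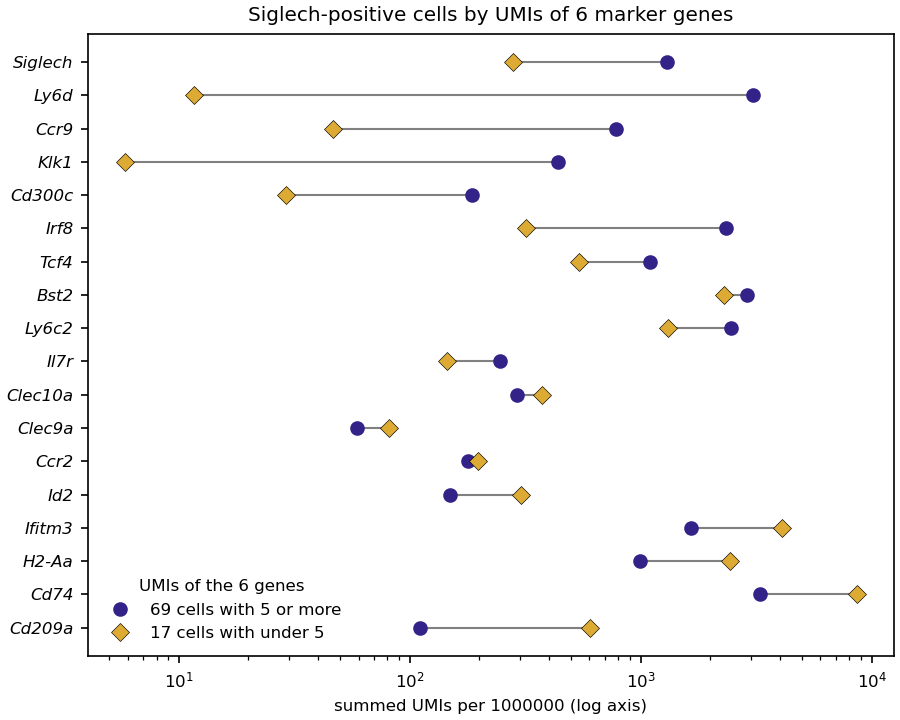
Summed level (CPM, log axis) of 18 genes in the 69 Siglech-positive cells with 5 or more UMIs of *Ccr9*, *Ly6d*, *Klk1*, *Cox6a2*, *Iglc3* and *Atp1b1* (circles) and in the 17 cells with fewer (diamonds). *Ly6d*, *Ccr9* and *Klk1* differed by the choice of the split, *Irf8* was higher in the 69, and *Cd209a*, *Cd74*, *H2-Aa* and *Ifitm3* were higher in the 17.

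Set beside microglia, which share *Siglech* and *Tlr7* with them, the Siglech-positive cells were separated by genes in both directions. The largest ratios over clusters 8 and 10 were those of *Cd300c* (11.56 [9.05 to 16.87]), *Klk1*, *Cd209d* (11.15 [9.28 to 14.20]), *Dntt* (11.11 [8.597 to 16.43]), *Ccr9* (11.001 [9.87 to 12.45]), *Gm21762*, *Upb1* (10.51 [8.63 to 13.57]), *Atp1b1* (8.93), *Cd7* (8.58) and *Smim5* (8.42). *Gm21762* had no UMI in either cluster, so that its log2 ratio was at least 10.74. *Upb1* encodes an enzyme of pyrimidine breakdown. The smallest ratios were those of *Nav3* (-6.56), *Syngr1* (at most -6.02), *Bhlhe41* (-5.57), *Camp* (-5.42), *Cd81* (-5.38), *C1qa* (-5.21), *Fcrls* (at most -5.14), *Tmem119* (-5.10), *Cd302* (-5.05) and *Ccl12* (-5.00). *Syngr1* and *Fcrls* were at 0 in Siglech-positive cells, *Bhlhe41* and *Camp*, a granule gene of neutrophils, had 2 UMIs and *Nav3* had 1. *C1qa*, a complement gene of microglia and macrophages, was at 21.5, 224, 542 and 275 CPM in Siglech-positive cells, with 94.0% of its UMIs in 5 cells, against 6447 CPM in cluster 8 and 7917 CPM in cluster 10.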

How the data were processed

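CD45+ cells of 4 spinal cord pools were profiled by 10x 3′ single-cell RNA-seq. The authors deposited raw UMI counts per gene and cell, made with Cell Ranger 3.1.0 on mm10 with a GENCODE annotation. The methods name filters on cells with fewer than 200 genes, more than 25000 reads or extreme mitochondrial or ribosomal content, but Siglech-positive cells of up to 25952 UMIs remained in the table, so the limit on reads was not seen in it. The cluster numbers came from the deposited cell table (16 clusters, resolution 0.4) and were not recomputed, and no doublet caller was run. Bulk libraries of the series were not used.

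UMI counts were summed over each set of cells. Ratios were computed in Python 3.11.15 (pandas 2.3.3, numpy 2.4.6, scipy 1.17.1; figures in matplotlib 3.10.9) for genes with a mean of 20 CPM or more over the compared sets and in libraries with at least 10 Siglech-positive cells. A count of 0 was set to a floor of 3 UMIs over the group, and genes at or under the floor in both sets got no ratio. Named genes were the 15 highest and 10 lowest ratios to the other cells of cluster 7 and the 10 highest and 10 lowest to clusters 8 and 10, among genes with 50 UMIs, a mean of 50 CPM and the same direction in every library, together with the genes of 24 lists. No test was run, because the rule or the clustering had used the same contrasts and each age and day had 1 library. The depth of the Siglech-positive cells was 112509 to 325619 UMIs per library, and Clopper-Pearson and conditional binomial 95% intervals give the counting precision. The cells and lists were chosen with earlier results of these data known. Alternatives changed the *Ccr7* condition, the depth, the weighting of cells, the filter on low genes, the fold limit, the scaling, the cells of mixed content and the libraries. Scripts were tested on simulated data. Promoters were taken from RefSeq on GRCm38.p6. A result on some genes of the homing list is not reported here.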

Additional observations from a re-analysis of the deposited data

Results flagged for a closer look

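Cells that met the same conditions on *Siglech* and *Ccr7* also lay in a cluster that the comparisons did not use. In cluster 1, 34 of 9645 cells (0.353%, exact 95% interval 0.244 to 0.492) held 2 or more *Siglech* UMIs and no *Ccr7*, whereas none of 6830 cells of cluster 2 did, which at a limit of 3 counts allows a share of up to 0.0439%. The 34 cells had a median of 0 UMIs of *Ccr9*, *Ly6d*, *Klk1*, *Cox6a2*, *Iglc3* and *Atp1b1*, none reached 5, and their median of microglial marker UMIs was 177, against 8 over all of cluster 1. Their median depth was 14635 UMIs. The part of mixed droplets in these counts was not tested.

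*Dntt*, of which Siglech-positive cells held 94 UMIs (113 CPM), was also found in cluster 4, with 37 UMIs (8.90 CPM). These came from 2 of 1360 cells, of which the higher held 25 UMIs, more than the 9 UMIs of the highest Siglech-positive cell.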

How the results depend on the processing

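No paired analysis was possible because each group has 1 library and no test was run. Among the recomputed values, 86 stayed within the limits set for them, 21 moved and 1 changed sign. These counts do not measure robustness. For a list median the limit was the standard deviation over the 4 libraries, which for the microglial list was 1.65, wider than its median of 1.498. Some values had to move. They were the shares of all cells, set against shares of cluster 7, the gene counts with a 4-fold limit or no filter, and the cell number without Young day 6. The sign changed for the microglial list, whose median log2 ratio to the other cells of cluster 7 was -0.41 after each cell was reduced to 2000 UMIs. That reduction left 54 Siglech-positive cells and gave shares of cluster 7 of 3.37%, 6.84%, 2.44% and 4.23% in the 4 libraries. With it, 557 genes were called lower and 681 higher. Middle-aged day 6 then kept fewer than 10 cells, so these calls did not require its direction. The median for the plasmacytoid dendritic cell markers over clusters 8 and 10 was 6.64. That median was 7.04 with every cell weighted equally and 7.29 without cells with 20 or more UMIs of T, B, NK or neutrophil markers, an alternative chosen after seeing the data. Without cells with 2 or more UMIs of those or microglial markers, 28 cells remained, with a marker median of 4.76 over the other cells of cluster 7, and over clusters 8 and 10, with microglial markers allowed, it was 8.29; counts of called genes were not run there, since too few libraries kept 10 cells. Without the condition on *Ccr7*, the mature dendritic cell list moved to -1.94. With no filter on low genes 886 genes were called higher and 644 lower, and with a 4-fold limit 162 and 90. Subtracting the median log2 ratio of all compared genes from each ratio gave 393 higher and 368 lower, against 495 and 303. The direction within each library was left unscaled. The balance of directions thus depended on the scaling. Of all cells in place of cluster 7, the shares were 0.373%, 0.224%, 0.130% and 0.203%. Leaving out each library gave 55 to 73 Siglech-positive cells and 288 to 483 genes called lower, the 483 without Young day 6, which holds the most cells. The direction then had to agree in the remaining libraries only. The plasmacytoid markers stayed at 3.32 to 3.87 and the mature list at -3.84 to -3.07. Genes with a mean under 20 CPM over the compared sets were not called at this depth.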
